A study of Mus musculus with 62 samples.

Results

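The control hypothalamus of the study was described here from 4 bulk RNA sequencing libraries of mice labelled cHet, taken at postnatal day 21 (P21) on a BL6 background. They were set against 4 cHet libraries each of periaqueductal gray, caudate putamen and substantia nigra, so 16 of the 62 samples of the series were compared. Members were chosen by tissue and genotype label alone, and no measured value entered the choice. The study is about Nova1, whose protein binds RNA and regulates splicing in neurons, and its tested genotype (cKO) lacks Nova1 in inhibitory neurons. The labels do not spell out cHet and do not name the Cre driver, every library of the comparison carries this genotype, and no wild-type library of these regions was used. Sex, pooling of animals and dissection borders are not given in the labels, and nothing says that the 4 libraries of a region came from separate animals, so the p-values measure the spread between libraries, which may be technical.

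The hypothalamus holds small groups of neurons that release peptides into the blood or within the brain and so govern water balance, growth, reproduction, stress hormones, feeding and sleep. Its magnocellular neurons send vasopressin and oxytocin to the posterior pituitary, parvocellular neurons release factors that drive the anterior pituitary, and lateral neurons with orexin or melanin-concentrating hormone reach most of the brain. The periaqueductal gray is a midbrain region that holds serotonergic cells at its ventral border, the caudate putamen is built mostly of GABAergic projection neurons, and the substantia nigra contains dopaminergic neurons beside GABAergic ones.

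The 16 libraries held 15.4 to 24.3 megatags (median 20.5), and those of hypothalamus 17.3 to 20.7 megatags. Between 17148 and 17755 of the 23038 listed genes had a tag, and 0.472 to 1.24% of tags fell on Rn45s, a ribosomal RNA precursor. Levels are given in CPM, the tags of a gene scaled to a library size of 1e+06 tags, and differences as log2 fold changes of hypothalamus over the other regions with their standard error (SE). No library stood apart from its region in a principal component analysis, in which the 3 leading components carried 44.9, 30.8 and 10.2% of the variance and separated the 4 regions. Nova1 itself lay between 107.5 and 124.8 CPM in hypothalamus, against 180.5 to 215.7 CPM in periaqueductal gray, 49.2 to 57.7 CPM in caudate putamen and 84.9 to 88.1 CPM in substantia nigra.

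The 4 genes with the highest log2 fold changes among those named as highest were all peptide precursors: Hcrt (orexin), Avp (vasopressin), Pmch (melanin-concentrating hormone) and Oxt (oxytocin). Their promoters are shown because the results turn on these genes. The windows are those of RefSeq on GRCm38.p6, from 250 bases before to 50 bases after the transcript start, written 5′ to 3′ on the gene's strand. They lie at chr11:100762882-100763181 (minus strand), chr10:88090822-88091121 (plus strand), chr2:130575919-130576218 (plus strand) and chr2:130582539-130582838 (minus strand). Capitals mark exact matches, on either strand, to TATAAA (the TATA box) or AGGTCA (the half-site of nuclear receptors).
Hcrt: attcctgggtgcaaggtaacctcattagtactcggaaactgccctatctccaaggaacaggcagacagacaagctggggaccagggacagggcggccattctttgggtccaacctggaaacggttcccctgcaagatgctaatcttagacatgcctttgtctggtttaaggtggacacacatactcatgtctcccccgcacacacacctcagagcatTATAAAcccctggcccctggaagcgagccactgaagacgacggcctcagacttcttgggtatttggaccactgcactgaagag
Pmch: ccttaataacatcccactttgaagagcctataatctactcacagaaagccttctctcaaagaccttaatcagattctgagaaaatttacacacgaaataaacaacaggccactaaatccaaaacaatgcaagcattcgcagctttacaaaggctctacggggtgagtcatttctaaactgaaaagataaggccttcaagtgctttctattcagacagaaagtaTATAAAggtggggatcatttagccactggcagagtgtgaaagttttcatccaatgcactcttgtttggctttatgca
Oxt: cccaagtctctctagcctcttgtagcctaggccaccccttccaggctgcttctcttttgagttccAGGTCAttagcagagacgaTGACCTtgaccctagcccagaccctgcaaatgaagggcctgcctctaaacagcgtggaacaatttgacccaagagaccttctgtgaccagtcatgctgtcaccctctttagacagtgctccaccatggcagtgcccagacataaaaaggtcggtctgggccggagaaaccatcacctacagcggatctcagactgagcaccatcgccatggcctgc
Avp: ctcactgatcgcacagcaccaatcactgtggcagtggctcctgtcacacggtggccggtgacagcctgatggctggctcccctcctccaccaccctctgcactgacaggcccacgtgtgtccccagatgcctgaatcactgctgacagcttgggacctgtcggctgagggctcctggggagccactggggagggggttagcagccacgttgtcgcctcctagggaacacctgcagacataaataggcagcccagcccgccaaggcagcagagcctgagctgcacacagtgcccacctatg
TATAAA stood at -33 in the Hcrt window and at -27 in the Pmch window, and was present in 13.6% of 32544 mouse promoter windows of the same length. The Oxt window held AGGTCA at -185 and, on the opposite strand, at -166, a motif found in 16.2% of the windows. Neither of these 2 motifs was in the Avp window in exactly these letters. The homeodomain core TAATTA (5.29% of windows) and the cyclic AMP response element TGACGTCA (1.8% of windows) were searched too and matched none of the 4. Of the 15 highest genes, 13 have a RefSeq window here, and 3 of these held TATAAA, 4 AGGTCA and none the other motifs. These are matches of letters in a window, with no binding measured. Oxt and Avp are neighbours on chromosome 2, lie on opposite strands with their 3′ ends facing each other, and are 3565 bases apart.

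Vasopressin, the antidiuretic hormone, and oxytocin, which acts on the uterus, milk release and social behaviour, were found almost entirely in the hypothalamus libraries among these 16. Avp reached 67.9, 43.7, 21.9 and 28.3 CPM in the 4 hypothalamus libraries, against 0 in all 4 of periaqueductal gray, 0 to 0.392 CPM in caudate putamen and 0 to 0.273 CPM in substantia nigra. Oxt reached 54.3, 42.8, 34.4 and 37.5 CPM in hypothalamus, against at most 0.294 CPM in periaqueductal gray, 0.0980 CPM in caudate putamen and 0.169 CPM in substantia nigra. The 15 highest genes, both of these among them, were chosen for lying above all 12 other libraries, so their separation and ratios are descriptions. The spread among hypothalamus libraries was wider for Avp than for Oxt. In bulk libraries, here and in every comparison of regions, more cells of a type and more RNA per cell cannot be told apart. Summed over libraries, Oxt had 3327 tags in hypothalamus and 15 in the 12 others, a ratio per tag sequenced of 684 (95% exact binomial interval 414 to 1220, counting error only). Avp had 3231 tags in hypothalamus, was at least 1020-fold higher there than in periaqueductal gray (floor of 3 tags over the region's 4 libraries), and had 21 tags in 5 of the other libraries.

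Orexin, the wake-promoting peptide of the lateral hypothalamus, had 27.5, 20.2, 20.7 and 21.03 CPM of Hcrt in hypothalamus. It had no tag in caudate putamen and at most 0.0631 CPM in periaqueductal gray and 0.0466 CPM in substantia nigra. With 1754 tags in hypothalamus and 6 in the 12 others, its ratio was 902 (interval 414 to 2460). Pmch, whose peptide promotes feeding and is made in the same lateral area, was far more abundant, at 294, 282, 262 and 278 CPM in hypothalamus. It held 0.0631 to 0.343 CPM in periaqueductal gray, 0.144 to 0.343 CPM in caudate putamen and 0.466 to 1.46 CPM in substantia nigra, so the groups were separated by more than 2 orders of size (ratio 622, interval 515 to 758). The gene 4930547N16Rik, which the reference annotation calls Parpbp, had 116 to 128 CPM in hypothalamus, against at most 1.18 CPM elsewhere. It lies on the opposite strand and shares 977 bases with Pmch on chromosome 10, and whether counting used strand is not given, so its tags and those of Pmch cannot be told apart. The same holds for Wnt9b, also among the 15 highest, which shares 1098 bases with Wnt3 and had 3.6 to 7.16 CPM in hypothalamus, against at most 0.785 CPM elsewhere.

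Per length, Pmch was the most abundant of 49 peptide precursor genes in hypothalamus, at 380 ± 19.95 RPKM (SD, n = 4), which was rank 60 among all genes. Sst (somatostatin, which restrains growth hormone release) followed at 130 ± 10.7 RPKM, then Oxt at 91.5 ± 19.3 RPKM and Avp at 81.5 ± 41.4 RPKM. The values of Oxt and Avp do not differ beyond their spread. Gal (galanin) came next at 57.1 ± 2.40 RPKM, Npy (neuropeptide Y) at 49.6 ± 8.78 RPKM, and Hcrt was the tenth at 39.1 ± 5.95 RPKM, after Tac1, Tac2 and Penk.

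**Figure D1:**
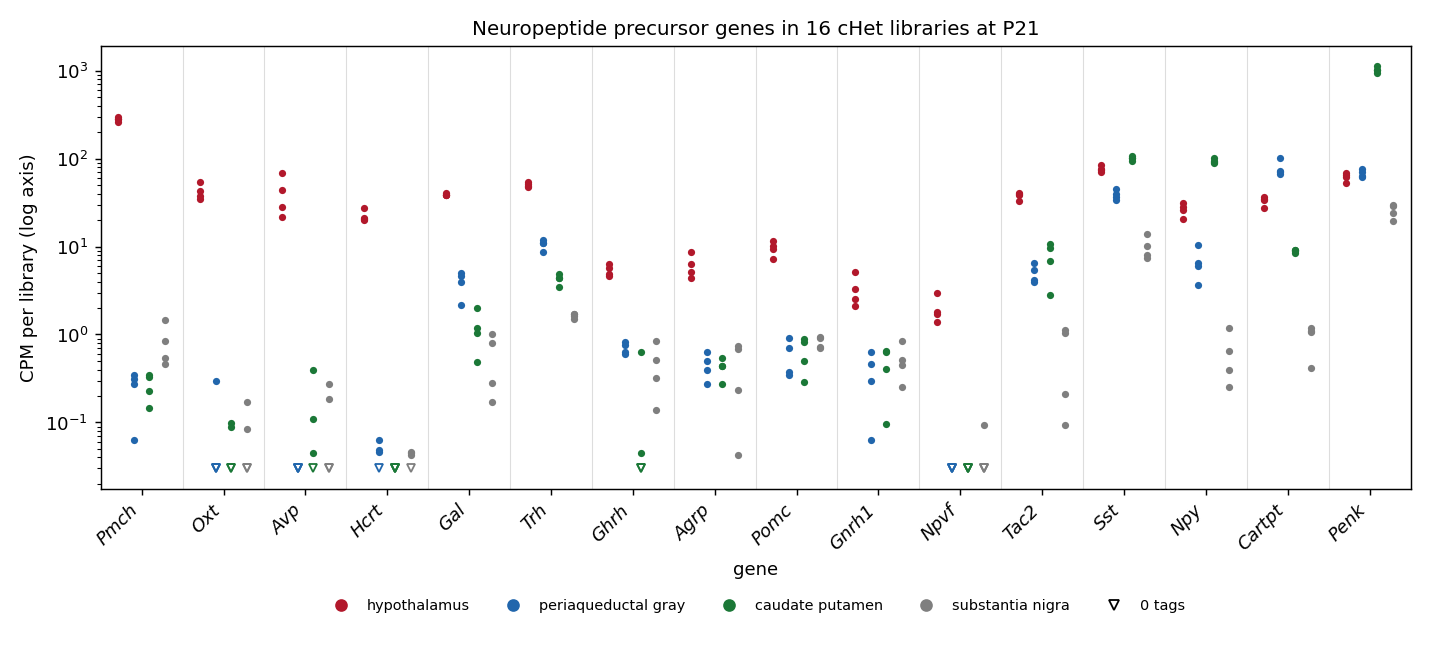
CPM of 16 neuropeptide precursor genes in each of the 16 cHet libraries, on a log axis; each filled point is a library, coloured by region, and open triangles at the foot mark libraries with 0 tags. Pmch, Oxt, Avp and Hcrt lie above 20 CPM in all 4 hypothalamus libraries and below 1.5 CPM in all 12 others, while Sst, Npy and Penk are highest in caudate putamen and Cartpt in periaqueductal gray.

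Across the transcriptome, 4145 of 15660 tested genes were higher in hypothalamus than in the mean of the 3 regions (26.5%) and 3501 were lower (22.4%), by edgeR's quasi-likelihood test at a Benjamini-Hochberg adjusted p of 0.05. At least 2-fold, 878 genes were higher (5.61%) and 288 lower (1.84%). In 718 genes (4.58%) all 4 hypothalamus libraries lay above all 12 others, and in 351 (2.24%) all lay below. The median over all tested genes was 0.01 log2 units. The contrast gives each region equal weight on the log scale, so a gene can be called higher and still lie far below 1 region: Slc6a3, the dopamine transporter, was called higher by 1.01 ± 0.27 log2 units (adjusted p = 0.00301) with 23.0 to 45.5 CPM in hypothalamus, against 1496 to 2080 CPM in substantia nigra. When the 12 other libraries formed 1 group, so that differences among the regions entered the error, 565 genes were higher and 331 lower.

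Set against single regions, hypothalamus differed from periaqueductal gray in the fewest genes, 2256 higher (14.4%) and 2088 lower (13.3%). Against caudate putamen 4538 were higher (29.0%) and 4519 lower (28.9%), and against substantia nigra 5478 were higher (35.0%) and 4597 lower (29.4%). At least 2-fold, 514 were higher (3.28%) and 244 lower (1.56%) than in periaqueductal gray. Against caudate putamen these numbers were 1437 (9.18%) and 1129 (7.21%), and against substantia nigra 1641 (10.5%) and 1086 (6.93%). These 3 comparisons share the hypothalamus libraries and are not independent of each other.

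**Figure D2:**
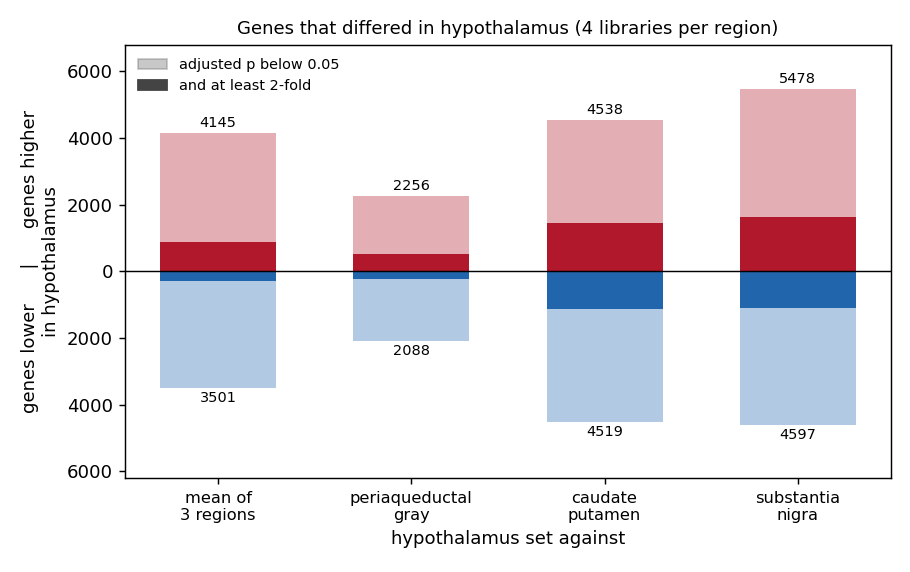
Numbers of genes higher (upward bars) and lower (downward bars) in hypothalamus at an adjusted p below 0.05, in pale colour, and those also at least 2-fold, in full colour. The bars against periaqueductal gray, 2256 and 2088 genes, are the shortest of the 4 comparisons, and those against substantia nigra, 5478 and 4597, the longest.

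Releasing and magnocellular hormone precursors were higher throughout the tested list. All 9 tested of 10 listed were higher than the mean of the 3 regions, with a median of 3.75 log2 units, beside 26.5% of all tested genes called higher and a median of 0.01. A gene that is detected almost only in hypothalamus can enter the test only through its level there, so such counts of tested members are descriptions. The untested member was Kiss1, the kisspeptin gene. In 8 of the 9, all 4 hypothalamus libraries lay above the 12 others, beside 4.58% of all tested genes.

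Trh, the releasing hormone of the thyroid axis, had 50.8, 54.1, 48.4 and 46.9 CPM in hypothalamus, against 8.74 to 11.8 CPM in periaqueductal gray, 3.51 to 4.90 CPM in caudate putamen and 1.502 to 1.73 CPM in substantia nigra. It was higher by 3.57 ± 0.08 log2 units than the mean of the 3 regions (edgeR adjusted p = 1.91e-20). Tac2, whose peptide neurokinin B acts on gonadotropin-releasing neurons, had 33.3 to 40.9 CPM in hypothalamus and at most 10.6 CPM in any other library. The genes of the rarest releasing factors were low but separate. Ghrh, which drives growth hormone release, had 5.74, 6.26, 4.87 and 4.63 CPM in hypothalamus, against at most 0.844 CPM elsewhere. Gnrh1, which starts the reproductive axis, had 2.09, 3.30, 5.18 and 2.51 CPM in hypothalamus, against at most 0.840 CPM elsewhere. Npvf, the precursor of RFamide-related peptides, had 1.37 to 2.93 CPM in hypothalamus and 2 tags in the 12 others, both in 1 library of substantia nigra.

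Sst was the exception, since its libraries did not all lie above the 12 others. It was higher than the mean of the 3 regions by 1.19 ± 0.09 log2 units (adjusted p = 1.6e-10) but lower than in caudate putamen, at 71.1 to 84.7 CPM in hypothalamus against 92.9 to 106.6 CPM there (log2 -0.39, adjusted p = 0.00437). Crh, the releasing factor of the stress axis, lay above all 12 others but did not pass against caudate putamen alone: it had 2.09 to 3.01 CPM in hypothalamus, against 1.49 to 2.07 CPM in caudate putamen (log2 0.41, adjusted p = 0.217).

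Of 15 feeding and arousal peptide genes, 11 were tested, with a median of 2.64 log2 units. Against the mean of the 3 regions 10 were higher and none was lower, beside 26.5% and 22.4% of all genes. Nmb did not pass (log2 0.47 ± 0.23, edgeR adjusted p = 0.0979). The arcuate peptides of opposite action on feeding were both at a few CPM. Agrp, which promotes feeding, had 6.36, 5.07, 4.398 and 8.63 CPM in hypothalamus, against at most 0.732 CPM in the 12 others. Pomc, the precursor of the satiety signal alpha-MSH, had 11.5, 9.26, 10.26 and 7.20 CPM in hypothalamus, against at most 0.928 CPM elsewhere. Pomc is also the precursor of pituitary corticotropin, at 5365 to 9749 CPM in the 3 pituitary cHet libraries of the series, which are shallower and were normalized apart. The pituitary hormone genes Gh and Prl had 0 tags in all 4 hypothalamus libraries, while Gh took 63730 to 86040 CPM of the pituitary ones.

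Gal, whose peptide galanin acts on feeding and arousal, was nearly alike among the hypothalamus libraries, with 38.4, 41.0, 38.5 and 38.7 CPM in hypothalamus, against 2.14 to 4.98 CPM in periaqueductal gray, 0.481 to 2.01 CPM in caudate putamen and 0.169 to 1.00 CPM in substantia nigra. Peptides that are also made elsewhere were higher against the mean but not against each region. Npy had 20.7 to 31.2 CPM in hypothalamus, against 89.5 to 100.7 CPM in caudate putamen, a log2 fold change of -1.83 (adjusted p = 1.28e-09). Cartpt, the CART precursor, had 27.3 to 36.2 CPM in hypothalamus, against 67.3 to 100.8 CPM in periaqueductal gray (log2 -1.24, adjusted p = 2.13e-08). By region, 9 of 11 were higher and 1 lower than in periaqueductal gray, 7 higher and 3 lower than in caudate putamen, and 11 of 11 higher than in substantia nigra. In the same order, 14.4%, 29.0% and 35.0% of all genes were higher and 13.3%, 28.9% and 29.4% lower.

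Among 18 tested genes of other neuropeptides, 11 were higher and 2 lower than the mean of the 3 regions (26.5% and 22.4% of all genes). Adcyap1, the precursor of PACAP, had 44.4 to 58.3 CPM in hypothalamus, against 23.1 to 31.7 CPM in periaqueductal gray and at most 3.46 CPM in the other regions. Ucn3 (urocortin 3, a stress peptide) was low, at 1.61 to 2.51 CPM in hypothalamus and at most 0.315 CPM elsewhere. The 2 lower genes were Penk, the enkephalin precursor, at 53.1 to 68.5 CPM in hypothalamus against 944.6 to 1124 CPM in caudate putamen, and Apln (apelin), at 11.7 to 18.4 CPM in hypothalamus against 16.6 to 36.9 CPM in the 12 others. Genes of the machinery that packs and cleaves peptides differed by less: 11 of 14 were higher and 2 lower, with a median of 0.39 log2 units, beside 26.5% and 22.4% of all genes. The number lower was 1 without hypothalamus library 3 or 4 and in the cKO libraries. Scg2 (secretogranin II) had 506.5 to 525.2 CPM in hypothalamus, against 176 to 365 CPM in the 12 others (log2 1.11 ± 0.06, adjusted p = 1.08e-13). Pcsk1, a prohormone convertase, was higher by 1.13 ± 0.08 log2 units (adjusted p = 6.97e-11), while Cpe, a carboxypeptidase that trims peptides, was lower by 0.15 log2 units (SE 0.04, adjusted p = 0.00551).

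Transcription factor genes of hypothalamic nuclei were mostly higher. Of 33 listed, 29 were tested, 24 were higher than the mean of the 3 regions and 3 lower, with a median of 3.52 log2 units. In 13 all 4 hypothalamus libraries lay above the 12 others. Over all tested genes 26.5% were higher, 22.4% were lower and 4.58% lay above the 12 others. Fezf1, a factor of the ventromedial nucleus, had 6.36, 5.32, 3.98 and 4.63 CPM in hypothalamus, against 0 in periaqueductal gray and substantia nigra and at most 0.147 CPM in caudate putamen. Nr5a1 (SF-1), also of the ventromedial nucleus and needed for its formation, had 5.93, 4.93, 4.19 and 7.31 CPM in hypothalamus, against 0 in periaqueductal gray and at most 0.241 CPM elsewhere. Both were lowest in library 3, while Nr5a1 was highest in library 4 and Fezf1 in library 1.

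Sim1, needed for the magnocellular and parvocellular neurons of the paraventricular nucleus, had 13.5, 11.8, 10.2 and 11.9 CPM in hypothalamus, against at most 1.56 CPM in the 12 others. Otp, which acts in the same neurons, had 2.97 to 4.93 CPM in hypothalamus and at most 0.412 CPM elsewhere. Six6, a factor of the suprachiasmatic nucleus and eye, had 1.71 to 3.42 CPM in hypothalamus and no tag in any of the 12 other libraries (at least 62.0-fold higher than in periaqueductal gray, 68.5-fold than in caudate putamen and 71.1-fold than in substantia nigra). Bsx, an arcuate factor that regulates Npy and Agrp, had 1.78 to 2.36 CPM in hypothalamus and 3 tags in all in the 12 others.

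Several factors were shared with 1 region. Nkx2-1, which patterns the ventral hypothalamus and the ventral forebrain, had 6.34 to 7.91 CPM in hypothalamus, against 3.18 to 4.58 CPM in caudate putamen and at most 0.251 CPM in the other regions. Dlx1, a factor of GABAergic forebrain neurons, had 21.1 to 26.7 CPM in hypothalamus, against 15.3 to 17.9 CPM in caudate putamen, 0.169 to 0.619 CPM in substantia nigra and 1 tag in periaqueductal gray; it overlaps the antisense gene Dlx1as by 3344 bases. Dlx2, its neighbour and relative, did not differ from caudate putamen beyond the test (log2 -0.06, adjusted p = 0.816). Lhx9 was lower than in periaqueductal gray, at 10.1 to 14.3 CPM in hypothalamus against 21.8 to 26.6 CPM (log2 -1.03, adjusted p = 4.9e-05). The 3 factors lower than the mean of the regions were Pou3f1, Pou3f2 and Emx2. Pou3f1 had 3.15 to 4.29 CPM in hypothalamus, against 5.17 to 27.8 CPM in the 12 others.

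**Figure D3:**
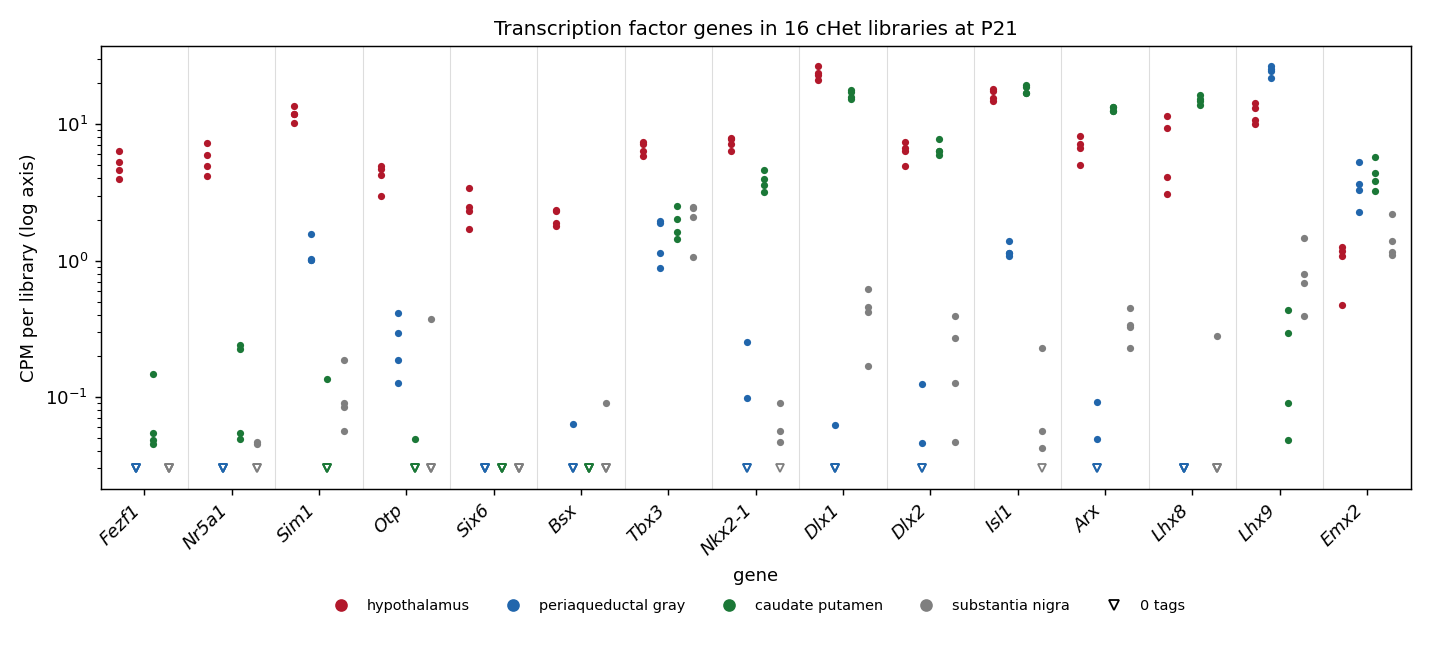
CPM of 15 transcription factor genes in each of the 16 cHet libraries, on a log axis, coloured by region; open triangles at the foot mark libraries with 0 tags. Fezf1, Nr5a1, Sim1, Otp, Six6, Bsx and Tbx3 are above the 12 other libraries in all 4 hypothalamus libraries, while Dlx2 and Isl1 overlap caudate putamen and Lhx9 lies below periaqueductal gray.

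Genes of thalamic neurons were present in the hypothalamus libraries, and the thalamus borders the hypothalamus. All 10 of the thalamic list were higher than the mean of the 3 regions (median 2.13 log2 units), beside 26.5% of all genes. Their summed level was 900 to 1098 CPM in hypothalamus, against 576 to 617 CPM in periaqueductal gray, 153 to 164 CPM in caudate putamen and 324 to 379 CPM in substantia nigra. None of the list was at 0 in hypothalamus. Prkcd, a kinase gene abundant in thalamic relay neurons, had 186, 110, 211 and 198 CPM in hypothalamus, against 12.8 to 35.9 CPM in the 12 others (log2 3.01 ± 0.12, adjusted p = 1.21e-15). Gbx2, a factor of thalamic development, had 5.27 to 8.69 CPM in hypothalamus, against at most 1.23 CPM elsewhere. Slc17a7, the vesicular glutamate transporter of cortical and thalamic neurons, had 56.6, 30.4, 61.9 and 45.9 CPM in hypothalamus. It was called higher than the mean of the 3 regions. With the 12 other libraries as 1 group it did not pass (log2 0.72, edgeR adjusted p = 0.712). Library 2 was the lowest in Prkcd, Slc17a7 and the summed thalamic genes, while its Pmch level lay among the others and its Trh level was the highest. How far thalamic tissue contributed to the genes called higher was not tested. Shox2, a gene of dorsal thalamus and midbrain, did not differ from periaqueductal gray beyond the test (log2 -0.40, adjusted p = 0.0702) and had 19.01 to 30.7 CPM in hypothalamus, against at most 0.144 CPM in caudate putamen.

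Receptor genes for metabolic and feeding signals were higher in 19 of 29, lower in 5 and did not pass in 5 against the mean of the 3 regions, with a median of 0.71 log2 units, beside 26.5% and 22.4% of all genes called higher and lower. Receptors with restricted expression led: Brs3, an orphan bombesin-like receptor involved in energy balance, had 6.97, 7.24, 6.60 and 6.51 CPM in hypothalamus, against at most 0.833 CPM in the 12 others. Gpr50, a melatonin-receptor relative, had 3.61 to 5.84 CPM in hypothalamus and at most 0.566 CPM elsewhere. Calcr, the calcitonin and amylin receptor, had 37.3 to 41.2 CPM in hypothalamus, against 14.9 to 19.7 CPM in periaqueductal gray and at most 3.65 CPM elsewhere. Mc3r, a melanocortin receptor, was higher by 2.54 ± 0.21 log2 units (adjusted p = 8e-10). Its relative Mc4r did not pass (log2 -0.26 ± 0.19, adjusted p = 0.27), nor did the insulin receptor Insr (log2 0.05 ± 0.05, adjusted p = 0.442). The leptin receptor Lepr was higher by 0.48 ± 0.12 log2 units (adjusted p = 0.00251), with 4.87 to 6.55 CPM in hypothalamus, against 4.60 to 6.57 CPM in periaqueductal gray, where the groups overlapped.

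Receptors for peptides made in the hypothalamus were not all highest there. Hcrtr1, the orexin receptor 1, had 9.42 to 11.2 CPM in hypothalamus, against 21 to 24.8 CPM in periaqueductal gray (log2 -1.19, adjusted p = 3.36e-07). Mchr1, the receptor of melanin-concentrating hormone, had 6.28 to 8.69 CPM in hypothalamus, against 20.4 to 29.1 CPM in caudate putamen (log2 -1.70, adjusted p = 5.13e-10), and did not pass against the mean of the regions (log2 -0.21 ± 0.13, adjusted p = 0.177). Oxtr, the oxytocin receptor, was higher by 1.28 ± 0.13 log2 units (adjusted p = 2.46e-08), with 6.07 to 7.68 CPM in hypothalamus, against 4.52 to 6.21 CPM in caudate putamen and at most 0.957 CPM in substantia nigra.

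Steroid and reproductive hormone receptors and enzymes were higher in 13 of 21 tested and lower in 4 (median 0.85 log2 units, beside 26.5% and 22.4% of all genes). Esr1, the estrogen receptor alpha gene, had 10.9, 12.6, 9.79 and 12.5 CPM in hypothalamus, against 5.31 to 7.06 CPM in periaqueductal gray and at most 1.53 CPM in the other regions. Prlr, the prolactin receptor, had 36.5 to 42.0 CPM in hypothalamus, against 22.0 to 26.1 CPM in periaqueductal gray and at most 4.76 CPM elsewhere; it is also a choroid plexus gene. The summed level of 14 choroid plexus genes was 591 to 688 CPM in hypothalamus, against 821 to 990 CPM in periaqueductal gray, 630 to 728 CPM in caudate putamen and 1177 to 1540 CPM in substantia nigra. By gene, 7 of the 13 tested were higher and 1 lower than the mean, beside 26.5% and 22.4% of all genes. The median of the 13 was 0.58 log2 units, and the part of choroid plexus in Prlr was not tested. Dio2, the enzyme that makes active thyroid hormone, was among the 10 lowest genes, with 15.4 to 20.5 CPM in hypothalamus, against 31.4 to 92.3 CPM in the 12 others (log2 -1.56 ± 0.10, adjusted p = 6.4e-12).

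Of 24 suprachiasmatic and clock genes, 12 were higher and 2 lower than the mean of the 3 regions, beside 26.5% and 22.4% of all genes. By region, 12 were higher and 2 lower than in periaqueductal gray, 10 and 11 than in caudate putamen, and 19 and 0 than in substantia nigra. The shares of all genes were 14.4% and 13.3%, 29.0% and 28.9%, and 35.0% and 29.4%. The general clock genes, which cycle in most tissues, went in different directions. Per1, Per2, Per3, Cry1, Cry2, Arntl, Nr1d1 and Nr1d2 did not pass; Per2 had 20.5 to 29.8 CPM in hypothalamus and log2 -0.09 ± 0.10 (adjusted p = 0.464). Clock was higher (log2 0.29 ± 0.08, adjusted p = 0.00333), and Dbp and Tef were the 2 lower (log2 -0.36 ± 0.07 and -0.18 ± 0.04, adjusted p = 0.000178 and 0.0019). Npas2 was close to the threshold (log2 -0.19 ± 0.08, adjusted p = 0.0503) and passed under DESeq2 (adjusted p = 0.0292) and with a replicate block (0.048). Vipr2, the VIP receptor, had 7.89 to 10.1 CPM in hypothalamus, against at most 3.43 CPM elsewhere. Rgs16, a G-protein regulator, had 39.9 to 54.5 CPM in hypothalamus and 4.36 to 9.47 CPM in the 12 others, and is expressed in thalamus too. Times of collection are not given in the labels.

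Hdc, the enzyme of histamine synthesis, whose neurons lie in the tuberomammillary nucleus, had 49.1, 47.3, 35.7 and 41.4 CPM in hypothalamus, against at most 4.46 CPM in the 12 others (log2 4.59 ± 0.15, adjusted p = 4.31e-17). The glutamate transporter Slc17a6, typical of hypothalamic, thalamic and midbrain glutamatergic neurons, had 336 to 413 CPM in hypothalamus, against 404 to 486 CPM in periaqueductal gray and at most 21.2 CPM in the other regions. It did not differ from periaqueductal gray beyond the test (log2 -0.20, adjusted p = 0.334). Of 6 genes of GABA synthesis and transport, 2 were higher and 4 lower than the mean, beside 26.5% and 22.4% of all genes. The number higher was 1 without hypothalamus library 2, 3 or 4, since Gad2, the other GABA-making enzyme, then did not pass (edgeR adjusted p = 0.0632 to 0.105). Gad1, which makes GABA, was among the lower and had 440 to 498 CPM in hypothalamus, against 433 to 522 CPM in periaqueductal gray, 822.5 to 851 CPM in caudate putamen and 876 to 974 CPM in substantia nigra.

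GABA and glycine receptor subunits were higher in 17 of 21, lower in 2 and did not pass in 2 (median 0.88 log2 units, beside 26.5% and 22.4% of all genes higher and lower). The widest differences were in subunits of restricted use. Gabre, the epsilon subunit, had 40.8, 39.8, 36.2 and 38.1 CPM in hypothalamus, against 6.03 to 8.24 CPM in periaqueductal gray, 0.625 to 1.76 CPM in caudate putamen and 0.140 to 0.338 CPM in substantia nigra. Gabrq, the theta subunit, whose gene lies in the same X-linked cluster, had 78.6 to 84.1 CPM in hypothalamus, against 24.2 to 28.2 CPM in periaqueductal gray and at most 3.82 CPM elsewhere. Gabrd, the delta subunit of extrasynaptic receptors, had 25.4, 15.96, 30.4 and 27.0 CPM in hypothalamus, against 113.6 to 123 CPM in caudate putamen and at most 1.64 CPM elsewhere. Library 2 was the lowest in Gabrd, as in the sum of the thalamic genes, though not in each of them to a like degree.

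Voltage-gated channel genes went in both directions, with medians of 0.25 log2 units for 29 sodium and calcium channel genes and 0.26 for 34 potassium and pacemaker channel genes. Scn9a and Scn7a, which encode the channels Nav1.7 and Nax, were higher than in every other library, at 41.5 to 49.5 CPM and 17.7 to 20.2 CPM in hypothalamus against at most 25.5 CPM and 10.8 CPM in the 12 others. Scn4b, the beta 4 subunit, was lower by 3.29 ± 0.13 log2 units (adjusted p = 8.58e-16), with 24.4, 16.3, 26.7 and 21.9 CPM in hypothalamus, against 119 to 192 CPM in periaqueductal gray, 968.5 to 1177 CPM in caudate putamen and 61.8 to 75.7 CPM in substantia nigra. Kcna1, an axonal potassium channel, was lower by 0.97 ± 0.10 log2 units (adjusted p = 4.53e-08), at 93.1 to 131 CPM in hypothalamus against 166 to 370 CPM in the 12 others.

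Imprinted genes, which are expressed from the copy of 1 parent, were higher in 33 of 48 tested, lower in 4 and did not pass in 11, with a median of 0.53 log2 units, beside 26.5% of all genes higher and 22.4% lower. Magel2, of the Prader-Willi region, had 34.4, 38.9, 31.1 and 33.8 CPM in hypothalamus, against 11.1 to 14.4 CPM in periaqueductal gray and at most 4.66 CPM elsewhere (log2 2.69 ± 0.08, adjusted p = 2.73e-17). Ndn, its neighbour, had 326 to 368 CPM in hypothalamus and 117 to 222 CPM in the 12 others. Peg10, a gene derived from a retrotransposon, had 258 to 301 CPM in hypothalamus and 39.2 to 125 CPM elsewhere, and Asb4 had 24.1 to 29.7 CPM in hypothalamus and at most 9.02 CPM elsewhere. Others matched periaqueductal gray: Peg3 had 950 to 1079 CPM in hypothalamus, against 881 to 989 CPM there (log2 0.09, adjusted p = 0.592) and 203 to 366 CPM in the other 2 regions. Impact, a regulator of the kinase GCN2, had 798 to 853 CPM in hypothalamus, against 750.4 to 825 CPM in periaqueductal gray (log2 0.06, adjusted p = 0.525) and 269 to 438 CPM in the other 2 regions. Over the list, 15 of 48 were higher and 7 lower than in periaqueductal gray, beside 34 and 3 against caudate putamen and 33 and 9 against substantia nigra. The shares of all genes higher were 14.4% against periaqueductal gray, 29.0% against caudate putamen and 35.0% against substantia nigra. In the same order, 13.3%, 28.9% and 29.4% of all genes were lower. Ddc, Mkrn3, Sgce and Inpp5f were the 4 lower than the mean. Mkrn3 did not pass without hypothalamus library 2 (adjusted p = 0.0805) or 4 (0.0538) or in the cKO libraries (0.136), and Inpp5f did not pass in the cKO libraries (0.519).

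Myelin and oligodendrocyte genes were lower in 24 of 27 and higher in none against the mean of the 3 regions (median -0.78 log2 units). Of all genes, 22.4% were called lower and 26.5% higher. For 14 of the 27, all 4 hypothalamus libraries lay below the 12 others, beside 2.24% of all tested genes. Mbp, the myelin basic protein gene, had 5665, 4988, 5703 and 5461 CPM in hypothalamus, against 8367 to 9609 CPM in periaqueductal gray, 6344 to 7636 CPM in caudate putamen and 15140 to 20410 CPM in substantia nigra. The 3 that did not pass were Pdgfra, a marker of oligodendrocyte precursors (log2 0.05 ± 0.05, adjusted p = 0.47), Gpr17 (log2 -0.12 ± 0.05, adjusted p = 0.0639) and Nkx6-2 (log2 -0.21 ± 0.09, adjusted p = 0.0621). The last 2 passed with a replicate block (adjusted p = 0.0368 for Gpr17 and 0.0396 for Nkx6-2) and under DESeq2 (0.0309 and 0.0464).

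Microglial genes were lower in 18 of 18 against the mean of the regions (median -0.94 log2 units), against caudate putamen and against substantia nigra. In the same order, 22.4%, 28.9% and 29.4% of all genes were lower. Against periaqueductal gray 17 of 18 did not pass, where 14.4% of all genes were higher and 13.3% lower. Csf1r, the receptor that keeps microglia alive, had 120, 118, 131 and 124 CPM in hypothalamus, against 113 to 136 CPM in periaqueductal gray, 231 to 273 CPM in caudate putamen and 400.2 to 446.5 CPM in substantia nigra. Astrocyte genes were mixed: 13 of 20 were lower and 4 higher than the mean, beside 22.4% and 26.5% of all genes. Their direction depended on the region. Higher and lower were 6 and 8 against periaqueductal gray, 13 and 3 against caudate putamen, and 2 and 16 against substantia nigra. The shares of all genes were 14.4% and 13.3%, 29.0% and 28.9%, and 35.0% and 29.4%. Among the 4 higher than the mean, and so unlike most of the list, were Agt (angiotensinogen) and Itih3. They were higher by 0.67 ± 0.08 and 1.14 ± 0.07 log2 units (edgeR adjusted p = 2.04e-07 and 1.89e-12). Gfap had 208 to 252 CPM in hypothalamus, against 45.6 to 97.3 CPM in periaqueductal gray, 170.4 to 187 CPM in caudate putamen and 1146 to 1293 CPM in substantia nigra, and did not pass against their mean (log2 -0.05 ± 0.11, adjusted p = 0.721). Endothelial and mural genes were lower than the mean in 11 of 22 and higher in 1, beside 22.4% and 26.5% of all genes. The number lower was 6 without hypothalamus library 1 and 7 without library 3. Against periaqueductal gray 20 of the 22 did not pass (median 0.05 log2 units), where 14.4% of all genes were higher and 13.3% lower. By comparison, 13 were lower than in caudate putamen and 13 than in substantia nigra (28.9% and 29.4% of all genes).

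Genes of neurofilaments and large, fast axons were lower in all 19 against periaqueductal gray (median -1.27 log2 units, beside 13.3% of all genes called lower). They were lower in 16 of 19 against substantia nigra, beside 29.4% of all genes. Against caudate putamen 10 were higher and 5 lower, beside 29.0% and 28.9% of all genes. Nefh, the heavy neurofilament gene, had 83.6 to 102 CPM in hypothalamus, against 210.4 to 248 CPM in periaqueductal gray, 33.9 to 39.5 CPM in caudate putamen and 182 to 195 CPM in substantia nigra. Syt2, a calcium sensor of fast synapses, had 33.1 to 40.7 CPM in hypothalamus, against 166 to 229 CPM in periaqueductal gray (log2 -2.30, adjusted p = 2.94e-13).

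**Figure D4:**
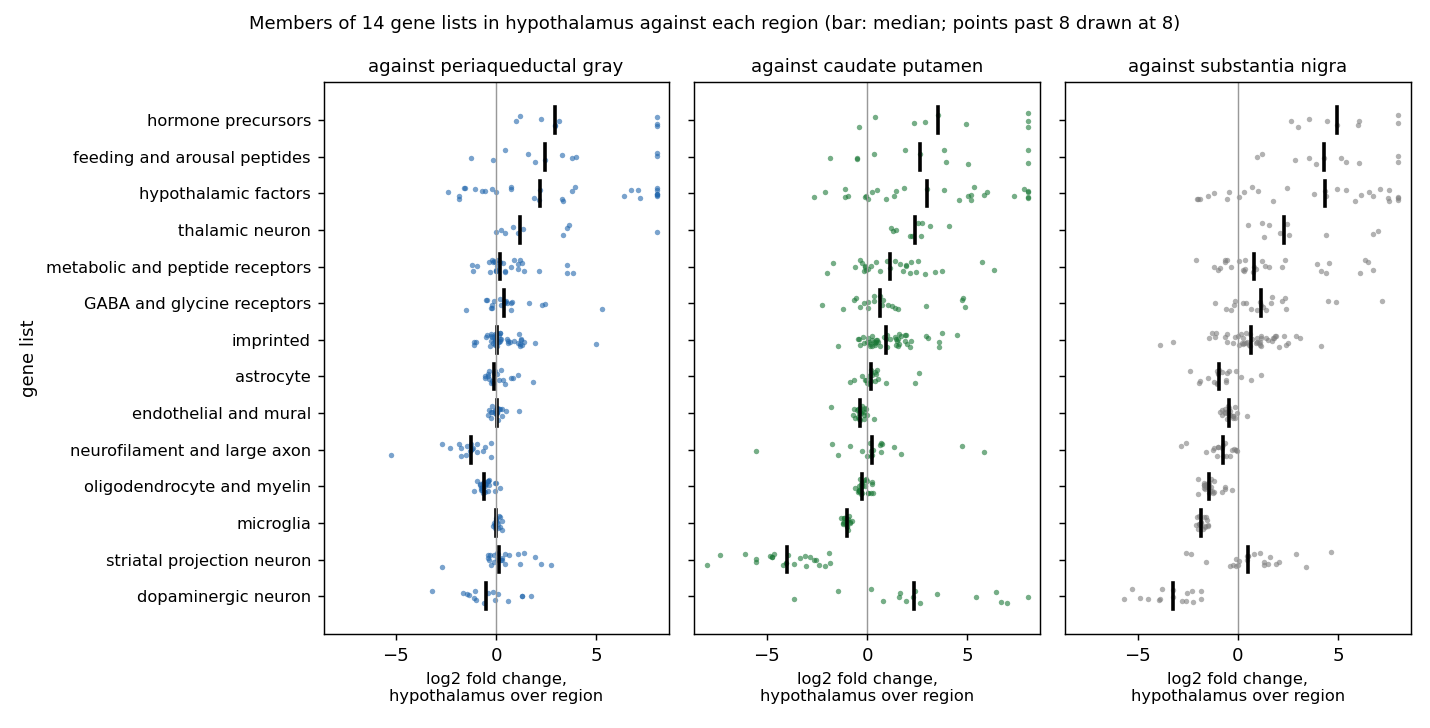
Log2 fold change of hypothalamus over each region for the tested members of 14 gene lists; each point is a gene, the black bar is the median of the list, and values past 8 are drawn at 8. Microglial genes lie around 0 against periaqueductal gray and below 0 against the other regions, neurofilament genes lie below 0 against periaqueductal gray, and hormone precursors lie mostly above 0 in all 3 panels.

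The 10 genes that were lowest in hypothalamus, below all 12 other libraries and at 5 CPM or more in them, were Tph2, Scn4b, Accn4, Slc10a4, Inf2, Tpm2, Pou3f1, Cyp2s1, Cyp26b1 and Dio2. They were chosen for lying below all 12, so their fold changes are descriptions. Tph2, the serotonin-synthesis enzyme of raphe neurons, had 0.0524 to 0.4 CPM in hypothalamus, against 114 to 276 CPM in periaqueductal gray and 0.728 to 2.45 CPM in the other regions. Inf2, an actin-regulating formin, had 49.9 to 63.2 CPM in hypothalamus, against 79.1 to 93.4 CPM in periaqueductal gray, 621 to 722 CPM in caudate putamen and 133 to 170.3 CPM in substantia nigra. Slc10a4, a vesicular transporter of monoaminergic and cholinergic neurons, had 5.55 to 8.69 CPM in hypothalamus, against 94.8 to 130 CPM in substantia nigra. Tpm2 (tropomyosin 2) and Cyp26b1, which breaks down retinoic acid, were lower than in each region by at least 1.04 log2 units.

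Against periaqueductal gray the 5 lowest genes were Slc6a4 and Tph2 of serotonergic cells, and the factor genes Tfap2d, Pou4f2 and Tfap2b. Slc6a4, the serotonin transporter, had 0 to 0.296 CPM in hypothalamus and 126 to 267 CPM in periaqueductal gray (log2 -10.23, adjusted p = 3.44e-16). Against caudate putamen the lowest were Cd4, Adora2a, Sh3rf2, Ptpn7 and Asb11. Adora2a, the adenosine receptor of striatal projection neurons, had 0.569 to 1.10 CPM in hypothalamus and 255 to 289 CPM in caudate putamen (log2 -8.22, adjusted p = 7.04e-21). Against substantia nigra the lowest included Pax5, Pax8, Slc6a3 and Gata3. The striatal list was lower in 24 of 24 against caudate putamen and the dopaminergic list in 16 of 16 against substantia nigra, beside 28.9% and 29.4% of all genes. Against periaqueductal gray 9 of the 16 dopaminergic genes were lower and 4 higher (median -0.49 log2 units), beside 13.3% and 14.4% of all genes. Th, the rate-limiting enzyme of dopamine synthesis, was 1 of the 4 higher than in periaqueductal gray, at 69.0, 63.0, 67.1 and 77.7 CPM in hypothalamus against 20.3 to 38.0 CPM (log2 1.31, adjusted p = 2.81e-08).

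Among the 4 hypothalamus libraries, the 5 genes with the widest relative spread at a mean of 20 CPM or more were Avp, Ptgds, Zbtb16, Col6a1 and Slc6a3, with coefficients of variation of 50.6, 50.3, 47.9, 41.8 and 35.1%. They did not share an order of libraries. Ptgds, the prostaglandin D synthase of leptomeninges and oligodendrocytes, had 551, 628, 248 and 222 CPM. Libraries 1 and 2 were also the higher in the summed leptomeningeal and fibroblast genes, with 302 and 343 CPM beside 208 and 224 CPM in libraries 3 and 4. Slc6a3 had 25.7, 23.0, 45.5 and 45.4 CPM, so its high libraries were those low in Ptgds. Lhx8, a factor of the ventral forebrain, had 3.08, 11.5, 9.42 and 4.11 CPM and was highest in library 2. Whether the dissection accounts for these differences was not tested. Pmch, Trh and Gal varied by 4.76, 6.26 and 3.23%, against 20.7% for Oxt and 15.3% for Hcrt.

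**Figure D5:**
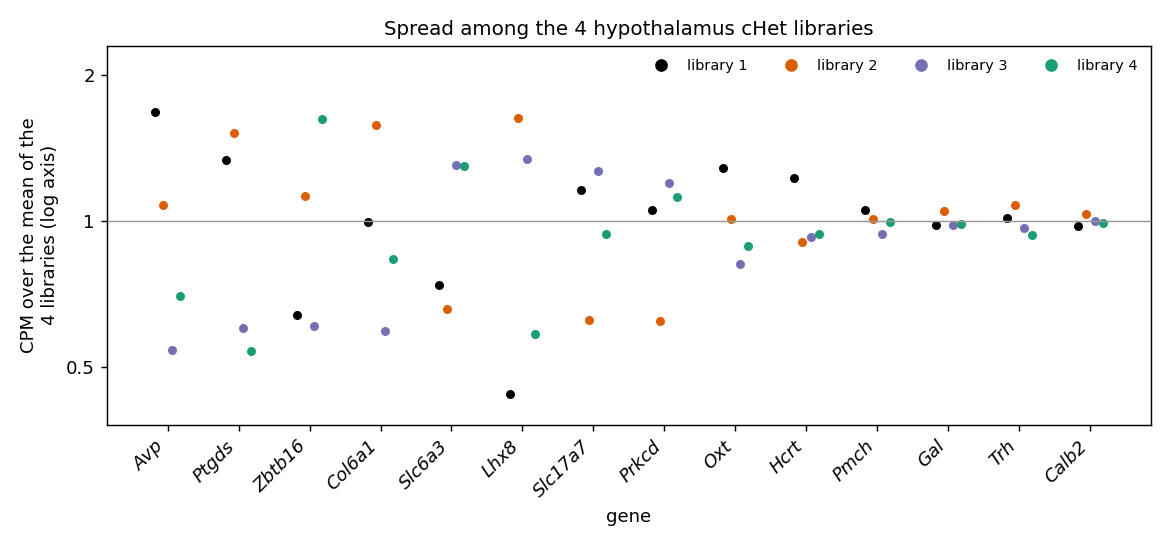
Level of 14 genes in each of the 4 hypothalamus cHet libraries, divided by the mean of the 4 libraries, on a log axis; colours mark the library. Avp, Ptgds and Lhx8 span more than 2-fold between libraries, while Pmch, Gal, Trh and Calb2 lie close to 1.

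The same contrast in the 16 cKO libraries, which chose none of these genes, gave 3864 genes higher and 3709 lower of 15678 tested. Of the cHet calls, 3366 of 4145 higher genes (81.2%, and 87.1% of the cKO calls) and 2836 of 3501 lower genes (81.0%, and 76.5% of the cKO calls) were called in the same direction, and Zwilch and C1s in the opposite one. The groups did not overlap in the cKO libraries either for 15 of the 15 genes named as highest, nor for 7 of the 10 named as lowest. Avp had 23.2 to 31.8 CPM and Oxt 25.1 to 38.5 CPM in hypothalamus cKO, against at most 2.38 CPM and 1.08 CPM in the other cKO libraries. A test of whether the contrast differed between genotypes called 0 of 16042 genes (edgeR, lowest adjusted p = 0.233, 688 genes at an unadjusted p under 0.05).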

How the data were processed

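Trizol and RNeasy columns were used for extraction, and TruSeq libraries were made after polyA selection, per the labels' protocols. The submitters' processing notes name mm10 and edgeR; the sources used here do not give aligner, counting program or strand use. The deposited tag numbers of the brain tables are fractional for 4.56 to 12.7% of genes, so they were taken as estimated counts and rounded. The deposited pituitary tag numbers are whole counts (2.24 to 3.1 megatags). The deposited RPKM values were used only to rank peptide genes. Intervals cover counting error only.

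Genes were kept with filterByExpr (minimum count 10) and scaled by TMM. The quasi-likelihood test of edgeR 4.0.16 (R 4.3.3) was fitted to the 16 cHet libraries with 1 term per region, with Benjamini-Hochberg adjustment over 15660 genes, and was tested on simulated data. Alternatives were RLE scaling, DESeq2 1.42.0, no filter, all 32 brain libraries, a replicate block, the cKO libraries, the 12 others as 1 group, glmTreat at 1.5-fold and leaving out each library. Named are the 15 highest and 10 lowest genes whose groups do not overlap (mean of 5 CPM or more), the 5 highest and 5 lowest per region, the 5 most variable (20 CPM or more) and members of 33 gene lists. Some genes that this rule picks are not reported here. The comparison, lists and rule were chosen with earlier results of these data known. Gene overlaps come from RefSeq positions, with strands from GENCODE, and 22959 of 23038 identifiers were found in RefSeq. No 2 libraries of a region were alike within sampling noise (lowest chi-square per degree of freedom 4.25).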

Additional observations from a re-analysis of the deposited data

Results flagged for a closer look

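In 140 groups of 4 libraries tested (the named genes in hypothalamus, and those among the highest and lowest genes in each region, at a mean of 5 CPM or more), 9 held a library farther from the others than Dixon's 95% limit allows; chance flags about 1 group in 20. In hypothalamus, Hcrt was at 27.5 CPM in library 1, beside 20.2 to 21.03 CPM in the others, and Gal at 41.0 CPM in library 2, beside 38.4 to 38.7 CPM. Clock was at 98.05 CPM in library 4, beside 88.9 to 89.2 CPM. Below the other libraries of hypothalamus stood Nucb2 at 24.0 CPM in library 3 (others 27.4 to 28.0 CPM), Pnoc at 17.1 CPM in library 1 (21.6 to 22.4 CPM), Tac1 at 37.4 CPM in library 4 (46.6 to 47.8 CPM) and Gad2 at 324 CPM in library 1 (370.4 to 377 CPM). Inf2 was high in library 3 of periaqueductal gray, at 93.4 CPM beside 79.1 to 81.2 CPM, and in library 3 of caudate putamen, at 722 CPM beside 621 to 635 CPM.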

How the results depend on the processing

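Every count of genes kept within 1.5 times of its value under RLE scaling, DESeq2, no filter, all 32 brain libraries, the cKO libraries and each left-out library, for the 4 comparisons. Against a fold of 1.5 (glmTreat), 971 genes were higher and 368 lower than the mean of the 3 regions, 472 and 215 than periaqueductal gray, 1637 and 1319 than caudate putamen, and 1985 and 1361 than substantia nigra. With the 12 other libraries as 1 group, 565 were higher and 331 lower, or 264 and 78 at least 2-fold; region differences then count as error. Leaving out each library gave 3561 to 4143 higher and 3159 to 3868 lower genes against the mean, 850 to 917 and 286 to 319 at least 2-fold, 1946 to 2313 and 1847 to 2302 against periaqueductal gray, 4280 to 4588 and 4229 to 4705 against caudate putamen, and 4860 to 5506 and 4374 to 5015 against substantia nigra. Of 141 named genes under 24 alternatives, 3213 of 3384 values kept direction and side of the threshold, 101 lost it, 61 gained it and 9 turned. Turned with the 12 as 1 group, none passing, were Npy (log2 -0.35), Tac1 (-1.24), Pdyn (-0.56), Hcrtr1 (-0.32), Gabrd (-0.70), Glra1 (-0.54) and Slc6a3 (-4.11). In the cKO libraries Ptgds (log2 -0.45) and Col3a1 (-0.52) turned; the cause was not tested. All 690 values of the 30 genes named against single regions kept their call.

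A fit with the replicate number as a block gave 4290 higher and 3644 lower genes against the mean. Nothing in the labels pairs the libraries, and the correlations of deviations did not all exceed 0.1: they were -0.0661 to 0.408 for the same number (median 0.126, 14 of 24 over 0.1), beside a median of -0.0441 for different numbers (11 of 72 over 0.1). Same-numbered libraries thus deviated together more often, a hint from the data and not from the design.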

Other observations

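Genes not described above included 14 ependymal genes, of which 13 were tested: 11 were higher and none lower than the mean of the 3 regions, with a median of 1.18 log2 units. Of all tested genes 26.5% were higher and 22.4% lower. Against periaqueductal gray 10 of the 13 ependymal genes did not pass, 2 were higher and 1 was lower (median 0.06 log2 units). In that comparison 14.4% of all genes were higher and 13.3% lower. The cilia genes Ccdc153 and Tmem212 had 11.4 to 14.7 CPM and 3.46 to 5.52 CPM in hypothalamus, against 7.42 to 16.8 CPM and 3.71 to 7.76 CPM in periaqueductal gray, where they did not differ beyond the test, and at most 0.228 CPM and 0 in substantia nigra. Foxj1, a regulator of motile cilia, did not pass against the mean (log2 -0.05 ± 0.09, adjusted p = 0.696). The list also holds Hdc, which is the histamine gene described above.

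Of the remaining lists, 8 of 19 tanycyte genes were higher and 5 lower than the mean of the 3 regions, as were 6 and 2 of 13 genes of histaminergic, serotonergic, noradrenergic and cholinergic neurons (4 lower under DESeq2). Over all genes these shares were 26.5% higher and 22.4% lower. Midbrain and hindbrain factor genes were higher in 4 of 19 and lower in 7, telencephalic ones higher in 7 of 15 and lower in 5, and erythroid genes lower in 3 of 5, or in 1 without hypothalamus library 4.

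Immediate early genes passed in few cases: 3 of 16 were higher and 2 lower than the mean (26.5% and 22.4% of all genes), while 11 were lower than in caudate putamen and 11 higher than in substantia nigra (28.9% and 35.0% of all genes). The 3 higher became 1 without hypothalamus library 3 and 5 with a replicate block, and the 2 lower became 1 without library 2 or 4 and 4 in the cKO libraries. Egr1 had 29.7, 20.3, 42.6 and 22.8 CPM in hypothalamus, against 181 to 305 CPM in caudate putamen and 3.04 to 6.33 CPM in substantia nigra. Glutamate receptor genes were higher in 18 of 24 and lower in 2 against the mean, beside 26.5% and 22.4% of all genes. Grm2, a presynaptic metabotropic receptor, had 33.9 to 41.7 CPM in hypothalamus, against 17.1 to 22.9 CPM in periaqueductal gray and at most 3.24 CPM in the other regions.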
